A study of Mus musculus with 2 samples.

Results

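The peptides and receptors of the suprachiasmatic nucleus described here are 7 genes, taken by name as rows of the deposited expression tables, of 25618 genes that both libraries share. They are the peptide precursors Vip, Nms, Prok2 and Avp, the G-protein regulator Rgs16, and the receptors Vipr2 and Prokr2, and all 7 were counted in both libraries. The series profiled live-sorted cells of the microdissected arcuate nucleus and median eminence of CD-1 mice aged 7 to 8 weeks with Drop-seq, in which transcripts caught in droplets are counted at their 3' ends by unique molecular identifiers (UMIs). A pool of 7 wild-type animals (WT) and a pool of 6 Irx5-/- animals (Irx5KO) gave 1 library each, with 1841 WT cells (3960089 UMIs) and 1949 Irx5KO cells (4915775 UMIs) kept here. Irx5 itself had 13 UMIs in WT and 0 in Irx5KO. The labels do not give the deleted stretch, so the 3' count checks the genotype only if the tag lies within it. Genotype and library cannot be told apart with 1 library each, so no test between genotypes was made. The 95% intervals below cover counting error only.

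The suprachiasmatic nucleus is the central circadian pacemaker and lies above the optic chiasm, in front of the dissected region. Its core holds neurons that make vasoactive intestinal peptide, and its shell holds neurons that make vasopressin. Neuromedin S and prokineticin 2 are further output peptides, and the receptors for vasoactive intestinal peptide and prokineticin 2 let the nucleus and its targets respond to them. Transcripts of several of these genes cycle over the day, and the labels do not say at which hour either pool was collected.

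The stretch of DNA before each start site shows how clock elements are spread over these genes. RefSeq (GRCm38.p6) held a start for 7 of 7 members, and the 250 bases before it were searched on both strands. The letters searched were the E-box CACGTG, the cAMP response element TGACGTCA, its core TGACG (which lies inside the full element), the D-box TTANGTAA and the REV-ERB element core AGGTCA. The 3 peptide genes that held an E-box or a cAMP element core are shown, with those letters in capitals. Vip lies at chr10:5638968-5639217 on the plus strand, Prok2 at chr6:99726393-99726642 on the minus strand and Avp at chr2:130582589-130582838 on the minus strand.
Vip: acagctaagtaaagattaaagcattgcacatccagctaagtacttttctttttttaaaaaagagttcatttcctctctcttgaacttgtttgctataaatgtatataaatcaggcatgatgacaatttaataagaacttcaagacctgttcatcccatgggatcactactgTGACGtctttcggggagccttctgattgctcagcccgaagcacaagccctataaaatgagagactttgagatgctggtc
Prok2: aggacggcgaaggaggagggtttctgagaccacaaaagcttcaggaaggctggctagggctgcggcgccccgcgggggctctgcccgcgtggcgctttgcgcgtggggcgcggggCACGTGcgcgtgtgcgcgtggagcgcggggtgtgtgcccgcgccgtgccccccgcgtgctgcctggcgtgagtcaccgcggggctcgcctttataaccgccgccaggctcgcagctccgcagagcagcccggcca
Avp: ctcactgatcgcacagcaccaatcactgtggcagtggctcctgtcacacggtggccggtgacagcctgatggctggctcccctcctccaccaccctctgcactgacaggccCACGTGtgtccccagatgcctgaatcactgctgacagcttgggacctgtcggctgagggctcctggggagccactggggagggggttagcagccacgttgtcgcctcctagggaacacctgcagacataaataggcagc
The E-box began 135 bases before the Prok2 start and 139 bases before the Avp start, and 6.02% of 32851 promoters held one in a window of this length. The core in Vip began 79 bases before the start, and 17.8% of promoters held one. Prokr2 held AGGTCA (14% of promoters) 144 bases before its start. Nms, Rgs16 and Vipr2 held none of the 5 motifs, and TGACGTCA (1.55% of promoters) and TTANGTAA (2.06%) were in none of the 7 windows. A match is a description of letters, not of a bound site, and a missing match covers this window alone.

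To place the members, cells were clustered without these 7 genes, and 2 neuron clusters were named suprachiasmatic-like (SCN-like) from a marker list that does not hold them. All 10 markers (Lhx1, Six6, Six3, Syt10, Zfhx3, Rorb, Rora, Dlx1, Grp and Nr1d1) were detected in these clusters in both libraries, at a summed level of 3408 CPM (UMIs of the gene per 1000000 UMIs of the class) in WT and 3686 CPM in Irx5KO. The same markers gave the clusters their name, so their presence does not check it. Set against the other neuron-like cells, Dlx1 was not enriched: 88.6 against 84.4 CPM (WT) and 74.6 against 80.1 CPM (Irx5KO). Grp in WT rested on 8 UMIs in 3 cells (28.3 against 13.7 CPM). The rest of the markers stood higher in SCN-like cells in both libraries. The class held 121 WT cells (median 1961 UMIs) and 83 Irx5KO cells (median 2271 UMIs). Its larger cluster, led by Rasl11b and Rora, had 110 WT and 70 Irx5KO cells, and its smaller one, led by Grp and Lhx1, had 11 and 13. The class made up 6.57% of the cells in WT and 4.26% in Irx5KO, although the labels name the arcuate nucleus and median eminence alone.

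Vip, Nms, Prok2 and Rgs16 were the 4 genes most restricted to SCN-like cells of the 14379 genes with at least 50 UMIs over both libraries. SCN-like cells held 98.0% of Vip UMIs, 94.3% of Nms UMIs, 92.7% of Prok2 UMIs and 83.4% of Rgs16 UMIs. Vipr2 followed at rank 6 with 60.2%, Prokr2 at rank 7 with 56.8% and Avp at rank 12 with 49.0%. The median gene had 5.25% of its UMIs there. Of the 7 members 6 had over 50% of their UMIs in SCN-like cells, against 0.0765% of all genes (11 genes, these 6 among them). Counted per library over the processings tried, 6 to 7 members did in WT and 5 to 7 in Irx5KO. Prokr2 in Irx5KO ran from 39.1% to 51.4%. Rasl11b, at rank 5, is among the genes that lead the larger cluster, as are Dusp4, C1ql3 and Zic1 at ranks 8, 10 and 11. Their places in this order thus depend on the clustering. The members took no part in the clustering, but they were chosen as genes of this nucleus, with earlier results of these data known.

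**Figure D1:**
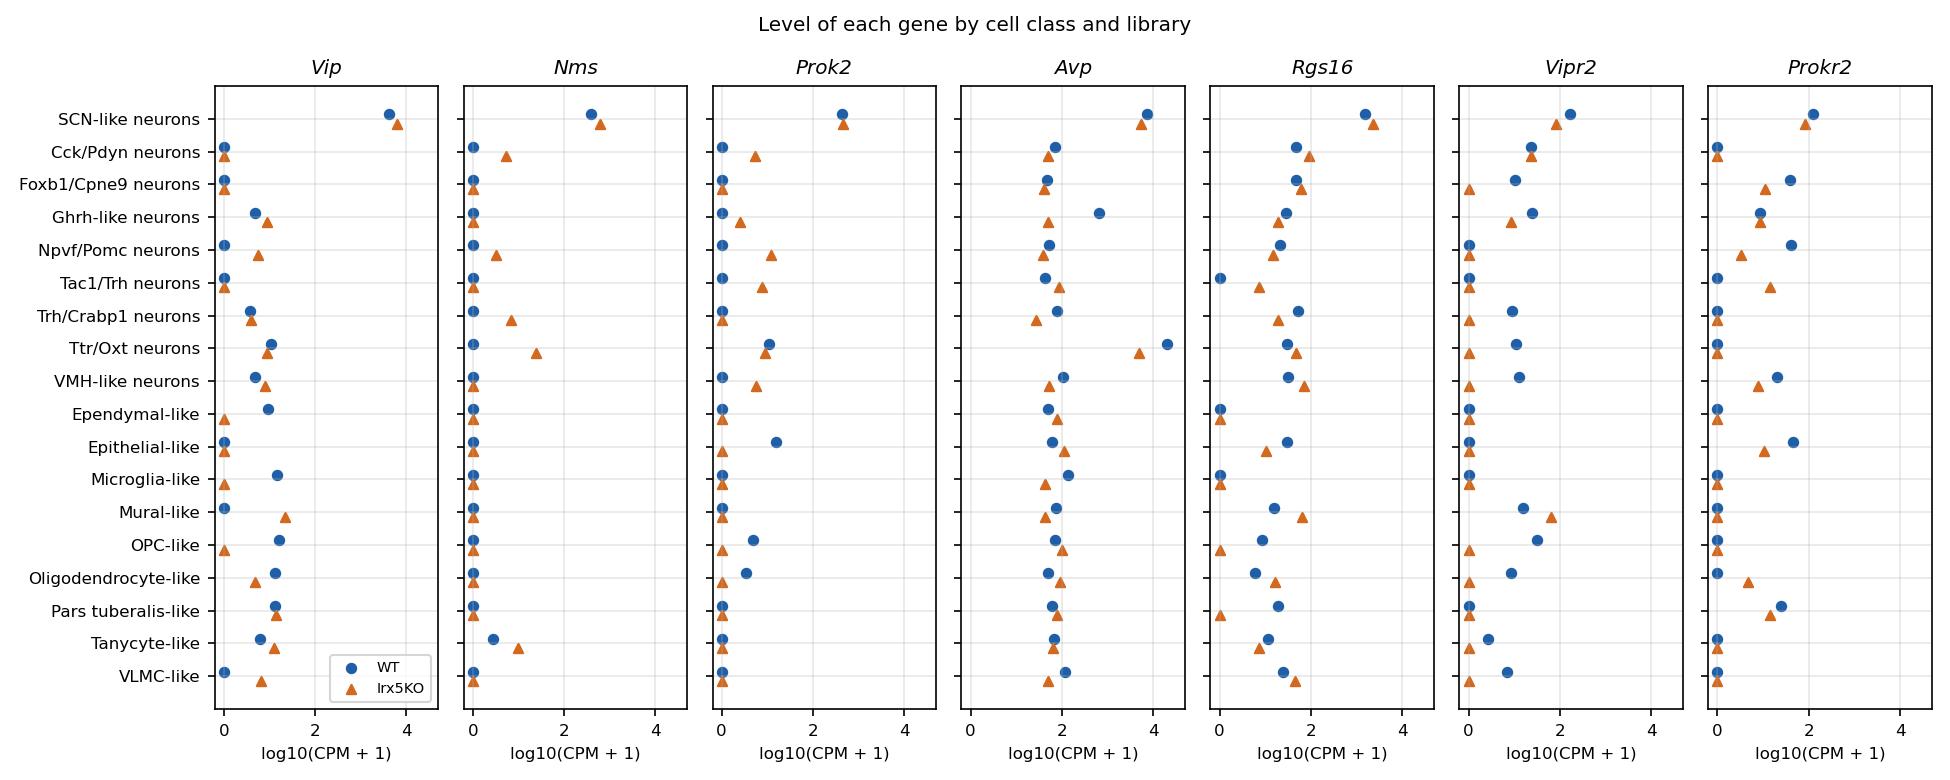
Level of each member in the 18 classes that have 20 or more cells per library, as log10 of CPM plus 1 (circles WT, triangles Irx5KO), 1 panel per gene. SCN-like neurons are highest for 6 members, while Avp is also high in the neurons led by Ttr and Oxt. The margin is narrow for Vipr2 in Irx5KO (83.4 CPM against 62.7 CPM in mural-like cells, from 3 UMIs).

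Vip encodes the precursor of vasoactive intestinal peptide, the signal that synchronises neurons of the nucleus. It had 1157 UMIs in SCN-like cells of WT (4099 CPM, 3866 to 4342) and 1390 UMIs in those of Irx5KO (6099 CPM, 5783 to 6429). In the other neuron-like cells it had 6 UMIs (3.93 CPM) and 15 UMIs (5.25 CPM). The level in SCN-like cells was thus 1044-fold (478 to 2849) that of other neurons in WT and 1162-fold (702 to 2082) in Irx5KO. Outside neurons Vip stood at 7.91 CPM (WT) and 7.11 CPM (Irx5KO), no lower than in the other neurons. Within the class, few cells carried it: 20 WT cells (16.5%) and 25 Irx5KO cells (30.1%). A cell with Vip held a median of 44 UMIs in WT (highest 239) and 30 UMIs in Irx5KO (highest 265). After every cell was thinned to 1000 UMIs, Vip was found in 16.8% of 101 WT cells and 29.1% of 79 Irx5KO cells (20 and 4 shallower cells left out), against 0.410% and 1.23% of tanycyte-like cells.

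Nms encodes neuromedin S, a peptide made by a broad set of suprachiasmatic neurons. Its 112 WT UMIs in SCN-like cells gave 397 CPM (327 to 477), and its 137 Irx5KO UMIs gave 601 CPM (505 to 711). In other WT neurons it was at 0. SCN-like cells of WT stood 202-fold above a floor of 3 UMIs over those neurons, and the exact interval of the difference began at 162-fold. In Irx5KO the difference was 245-fold (116 to 622). A UMI was found in 42 WT cells (34.7%) and 33 Irx5KO cells (39.8%), with at most 13 and 15 UMIs in a cell. Thinned to 1000 UMIs, these shares were 25.7% and 25.3%, against 0% (which allows up to 1.23%) and 1.23% of tanycyte-like cells. As counted, more cells carried Nms than Vip, but at 1000 UMIs per cell that order held in WT and not in Irx5KO.

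Prok2 encodes prokineticin 2, a secreted output signal of the nucleus. It had 124 UMIs in SCN-like cells of WT (439 CPM, 365 to 524) and 104 in those of Irx5KO (456 CPM, 373 to 553). Other neurons had 3 and 11 UMIs, which put SCN-like cells 224-fold (74.8 to 1099) and 119-fold (63.6 to 245) higher. It was found in 37 WT cells (30.6%) and 26 Irx5KO cells (31.3%), and after thinning in 20.8% and 24.1%, against 0 of the tanycyte-like cells in either library, which allows up to 1.23% and 0.920%. The deeper cells carried it in Irx5KO, where cells with a Prok2 UMI had a median of 3287.5 UMIs, but not in WT, where they had 1590.

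Rgs16 encodes a regulator that speeds the shut-off of Gi/Gq signalling, and in the nucleus it is a clock output. It was the most widespread member within the class, with a UMI in 86 WT cells (71.1%) and 63 Irx5KO cells (75.9%). Its 433 and 533 UMIs gave 1534 CPM (1393 to 1685) in WT and 2339 CPM (2144 to 2546) in Irx5KO. SCN-like cells were 46.9-fold (34.9 to 64.1) above other neurons in WT and 71.1-fold (57 to 89.5) in Irx5KO. Other neurons held 32.7 CPM (24.3 to 43.2) in WT and 32.9 CPM (26.6 to 40.2) in Irx5KO. These intervals lay above those of the non-neuronal cells, 9.30 CPM (5.68 to 14.4) and 15.3 CPM (10.2 to 22.1). The highest of the 8 other neuron types were those led by Trh and Crabp1 in WT (51.8 CPM) and those led by Cck and Pdyn in Irx5KO (88.2 CPM).

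Vipr2 encodes VPAC2, the receptor through which Vip acts on suprachiasmatic neurons. It was sparse, with 46 UMIs in SCN-like cells of WT (163 CPM, 119 to 217) and 19 in those of Irx5KO (83.4 CPM, 50.2 to 130). A UMI was found in 29 WT cells (24%) and 14 Irx5KO cells (16.9%), with at most 3 and 2 UMIs in a cell. SCN-like cells stood 15.6-fold (8.65 to 29.4) above other neurons in WT and 23.8-fold (10.5 to 57.4) in Irx5KO. Prokr2 encodes a receptor for prokineticin 2. It had 35 UMIs in SCN-like cells of WT (124 CPM, 86.4 to 172) and 19 in those of Irx5KO (83.4 CPM, 50.2 to 130), in 24 cells (19.8%) and 11 cells (13.3%). It stood 12.6-fold (6.72 to 24.9) and 15.9-fold (7.65 to 33.6) above other neurons. After thinning, Vipr2 was found in 12.9% and 10.1% of SCN-like cells and Prokr2 in 12.9% and 7.59%, while 0 tanycyte-like cells had a UMI of either receptor, which allows up to 1.23% in WT and 0.920% in Irx5KO. Both receptors were thus found in a larger share of SCN-like than of tanycyte-like cells, but with too few UMIs to rank the other classes. Whether their low counts in other classes are free RNA was not tested.

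For these 6 genes SCN-like neurons were the first of 18 classes in both libraries, and no other class reached their lower level. The highest other class for Vip was OPC-like cells in WT (15.2 CPM) and mural-like cells in Irx5KO (20.9 CPM). For Prok2 it was epithelial-like cells in WT (14.6 CPM) and the neurons led by Npvf and Pomc in Irx5KO (11.3 CPM). For Vipr2 it was OPC-like cells in WT (30.5 CPM) and mural-like cells in Irx5KO (62.7 CPM), and for Prokr2 epithelial-like cells in WT (43.8 CPM) and pars tuberalis-like cells in Irx5KO (13.1 CPM). The highest other class thus differed between the libraries for these 4 genes. Ordered by the mean of the libraries, each class below SCN-like cells overlapped the next one.

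The smaller SCN-like cluster was nearly empty of the peptides. Its 11 WT and 13 Irx5KO cells held 0 UMIs of Nms and Prok2, and its Vip UMIs were 0 in WT and 5 in Irx5KO, all in 1 cell. Rgs16 was present in 5 of 11 WT cells (183 CPM) and 6 of 13 Irx5KO cells (192 CPM). The values given for the class therefore came almost wholly from the larger cluster.

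Avp encodes the vasopressin precursor, which shell neurons of the nucleus and, at far higher output, magnocellular neurons of other hypothalamic nuclei make. It was the exception among the members. SCN-like cells held 2015 Avp UMIs in WT (7138 CPM, 6830 to 7457) and 1201 in Irx5KO (5270 CPM, 4976 to 5577). The neurons led by Ttr and Oxt had 20134 CPM in WT and 5002 CPM in Irx5KO, so the first place in the order was not resolved between these classes. Only 5 cells had at least 300 Avp UMIs, a limit chosen after the values were seen. They were 4 WT cells with 422, 500, 509 and 611 UMIs and 1 Irx5KO cell with 632, all among the neurons led by Ttr and Oxt. These 5 cells held 45.7% of all WT and 30.1% of all Irx5KO Avp UMIs, and they had 0 UMIs of the other 6 members. Avp was 17.9% to 32.8% of the UMIs of such a cell. Without them, SCN-like cells held 83.1% of Avp UMIs in WT and 81.8% in Irx5KO.

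Avp was also the member with the most widely scattered low counts. Outside neurons it stood at 67.9 CPM (WT) and 71.1 CPM (Irx5KO), and 11.4% and 9.87% of those cells had a UMI (median depths 1477 and 1412.5 UMIs). All 9 non-neuronal classes had some, from 48.5 to 133 CPM in WT and 41.8 to 112 CPM in Irx5KO. After thinning, an Avp UMI was left in 6.15% (WT) and 6.13% (Irx5KO) of tanycyte-like cells, against 40.6% and 35.4% of SCN-like cells. Single Avp UMIs were therefore read as background, and cells with at least 10 Avp UMIs fell into a narrower set. Of the 38 WT cells with 10 to 299 UMIs, 37 were SCN-like and 1 was a Ghrh-like neuron with 152 UMIs, and of the 22 Irx5KO cells 21 were SCN-like.

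The neighbouring oxytocin gene Oxt followed Avp in the counts. The genes are 3565 bases apart, in opposite orientation, on chromosome 2 (mm10). Their transcripts share a run of 127 coding bases across exons 1 and 2, in the neurophysin part of both precursors. The run is shown in capitals with 15 bases on each side, spliced. Avp spans chr2:130581118-130582426 on the minus strand and Oxt chr2:130576313-130576730 on the plus strand.
Avp: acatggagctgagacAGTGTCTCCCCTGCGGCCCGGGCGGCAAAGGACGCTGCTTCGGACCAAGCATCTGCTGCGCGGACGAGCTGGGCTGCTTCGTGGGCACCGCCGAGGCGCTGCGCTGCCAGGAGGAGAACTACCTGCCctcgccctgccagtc
Oxt: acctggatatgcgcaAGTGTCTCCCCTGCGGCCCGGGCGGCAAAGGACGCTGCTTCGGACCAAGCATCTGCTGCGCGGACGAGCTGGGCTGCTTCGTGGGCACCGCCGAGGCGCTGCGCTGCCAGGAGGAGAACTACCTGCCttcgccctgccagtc
The run ends 307 bases before the 3' end of the Avp transcript (577 bases) and 255 bases before that of Oxt (537 bases). Of 37 WT SCN-like cells with at least 10 Avp UMIs, 31 had an Oxt UMI, and all 21 such Irx5KO cells did. They held 5.40 Oxt UMIs per 100 Avp UMIs in WT and 8.66 in Irx5KO, and the 5 cells with at least 300 Avp UMIs held 7.64 and 3.80. A single WT neuron had 186 Oxt UMIs and 1 Avp UMI. Whether reads from the shared run were assigned to the other gene was not tested, so Oxt is uncertain in cells rich in Avp.

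**Figure D2:**
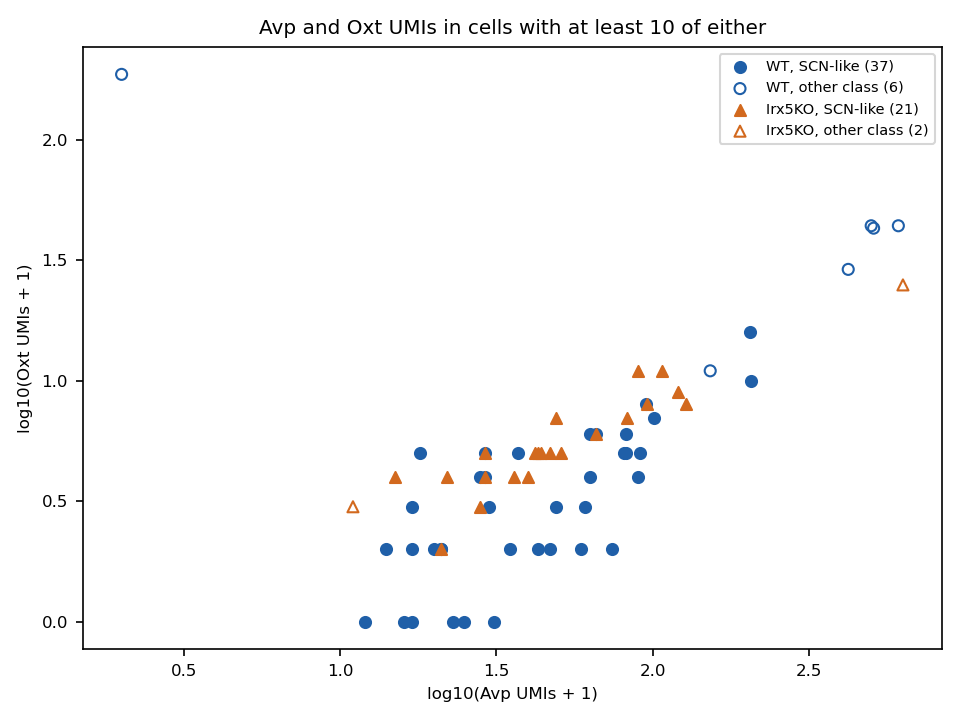
Oxt against Avp UMIs per cell (log10 of UMIs plus 1 on both axes) in cells with at least 10 UMIs of either, SCN-like or other, in each library. Avp-rich SCN-like cells have 0 to 15 Oxt UMIs, the 5 cells over 300 Avp UMIs have 24 to 43, and 1 WT cell with 186 Oxt UMIs lies alone.

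Within the SCN-like class, Vip and Avp marked separate cells in both libraries. Taking at least 10 UMIs as rich, a limit chosen after the values were seen, 14 WT cells (11.6%, 6.47 to 18.7) were rich in Vip and 36 (29.8%, 21.8 to 38.7) rich in Avp. In Irx5KO 22 cells (26.5%, 17.4 to 37.3) were rich in Vip and 21 (25.3%, 16.4 to 36.0) rich in Avp. Only 1 WT cell and 0 Irx5KO cells were rich in both. Thinned to 1000 UMIs, Avp was found in 2 of 17 WT cells with Vip (11.8%) and in 0 of 23 Irx5KO cells (which allows up to 13%), against 46.4% and 50% of the remaining cells. Position of the cells in the nucleus was not measured.

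**Figure D3:**
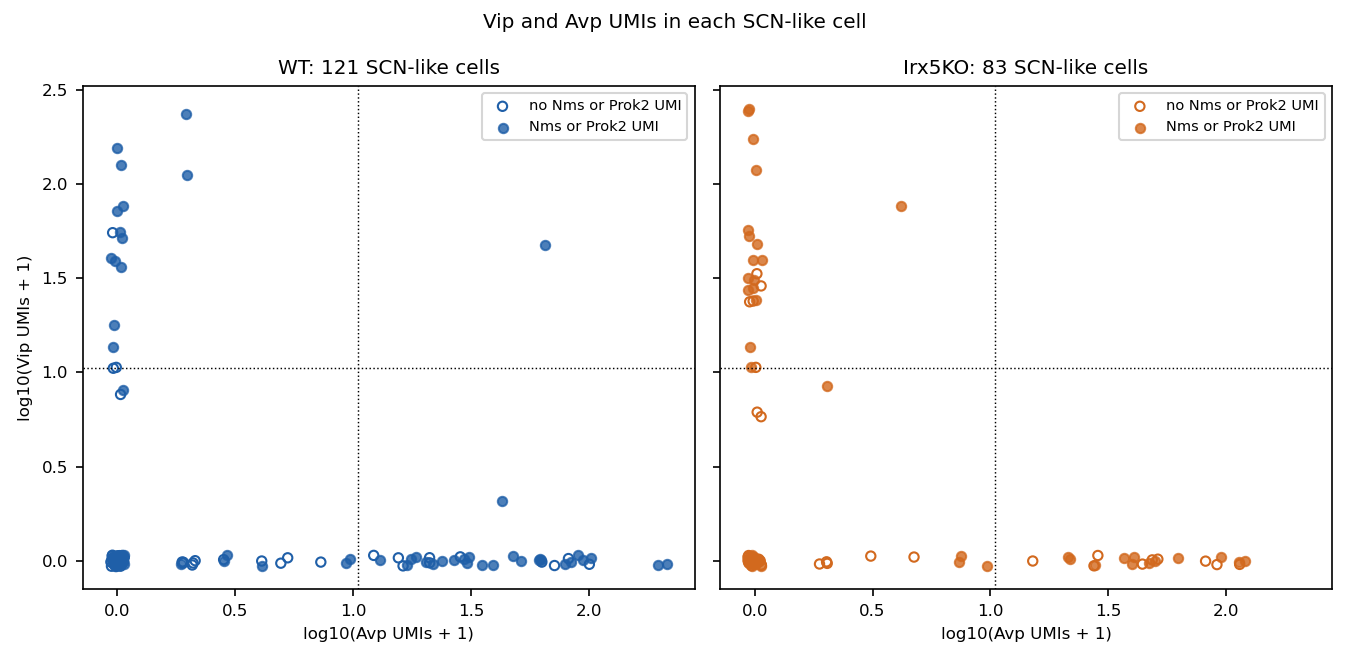
Vip against Avp UMIs per SCN-like cell (log10 of UMIs plus 1, points jittered) in each library. Filled points have an Nms or Prok2 UMI and dotted lines mark 10 UMIs, and 1 WT cell and 0 Irx5KO cells lie above both lines.

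Nms, Prok2 and Rgs16 crossed that split. An Nms UMI was found in 13 of 14 Vip-rich cells of WT (92.9%) and 16 of 22 of Irx5KO (72.7%). Avp-rich cells had one in 19 of 36 (52.8%) and 9 of 21 (42.9%), and cells rich in neither in 10 of 70 (14.3%) and 8 of 40 (20%). Over both libraries, Prok2 was found in 55.6% of Vip-rich, 47.4% of Avp-rich and 13.6% of the cells rich in neither, and Rgs16 in 94.4%, 86.0% and 59.1%. Median depths of these 3 sets, 1818, 2040 and 1944.5 UMIs in WT and 2050, 2483 and 2155.5 UMIs in Irx5KO, did not follow that order. In summed level, Rgs16 was highest in Vip-rich cells, with 3317 CPM (2757 to 3957) in WT and 4157 CPM (3672 to 4689) in Irx5KO. Avp-rich cells had 1710 CPM (1450 to 2004) and 2610 CPM (2223 to 3046). The intervals of the 2 sets were apart in each library, but they leave out the spread between cells. In WT, 1 Vip-rich cell held 41 and another 40 of 123 Rgs16 UMIs, and the WT order rests on these cells. In Irx5KO, 1 held 60 and another 46 of 265.

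The receptors did not share this pattern. Vipr2 was found in 19.4% of Vip-rich, 19.3% of Avp-rich and 22.7% of the cells rich in neither. Prokr2 was found in 16.7%, 8.77% and 21.8%. In level, Prokr2 had 161 CPM (115 to 218) in cells rich in neither peptide against 33.1 CPM (10.7 to 77.2) in Avp-rich cells, from 41 and 5 UMIs over both libraries. The order held in each library, with 164 CPM against 44.7 CPM in WT and 156 CPM against 16.2 CPM in Irx5KO, although the intervals overlap within a library. With a limit of 5 UMIs in place of 10, Avp-rich cells had 59.7 CPM (28.6 to 110) from 10 UMIs against 157 CPM (110 to 217), and the intervals met.

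**Figure D4:**
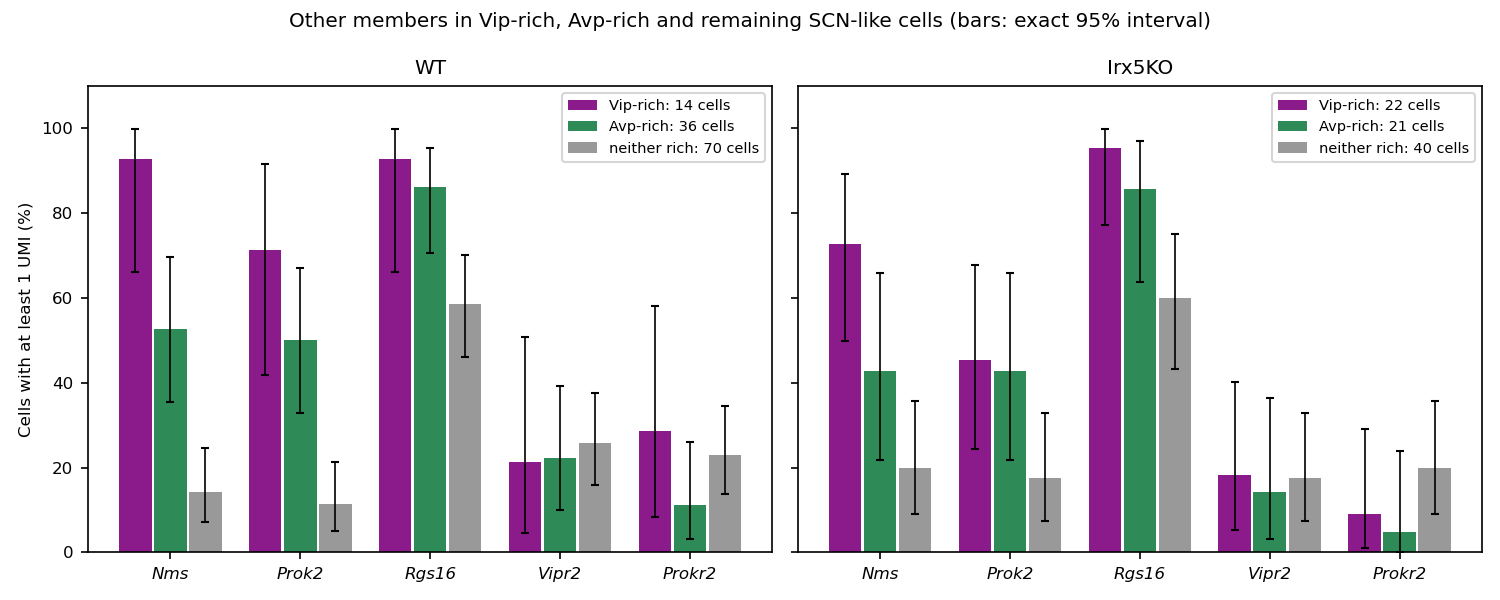
Percent of SCN-like cells with a UMI of Nms, Prok2, Rgs16, Vipr2 or Prokr2 among Vip-rich cells, Avp-rich cells and cells rich in neither, per library, with exact binomial 95% intervals as error bars. The bars of Nms, Prok2 and Rgs16 are lowest in cells rich in neither peptide, while the intervals of the receptors overlap between the sets.

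Nms and Prok2 also shared cells. After thinning, Prok2 was found in 13 of 26 WT cells with Nms (50%) and 11 of 20 Irx5KO cells (55%), against 10.7% and 13.6% of cells without Nms. Thinned to 2000 UMIs, the WT share was 3 of 13 (23.1%) against 15.2%, and the Irx5KO share 14 of 21 (66.7%) against 11.5%, over fewer and deeper cells. Rgs16 was found in 81.0% and 94.7% of cells with Prok2, against 48.8% and 48.3% of cells without. For Vip and its receptor, 20% of WT and 16% of Irx5KO cells with Vip had a Vipr2 UMI as counted, near the class's own 24% and 16.9%.

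By level over the 36 points of 18 classes in 2 libraries, the genes most like each member were largely other members. The points share libraries and differ in depth, so the correlations of log2(CPM + 10) are descriptions. Vip, Nms and Prok2 were each other's nearest genes (Pearson r of 0.935 to 0.946), followed for each by Rgs16 (0.790 to 0.824). Rgs16 in turn was nearest to Prok2, Nms and Vip. Among the classes, SCN-like cells alone had high levels of these genes, so their correlations restate that restriction. Avp was nearest to Oxt (0.905), then to Fbxl21 (0.670) and Prok2 (0.670). Vipr2 was nearest to Rgs16 (0.746), Vip (0.714) and Zic1 (0.708), the last of which leads an SCN-like cluster. Prokr2 was nearest to Gm16062 (0.693), Prok2 (0.677) and Plch2 (0.639).

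Between the genotypes, SCN-like cells were a smaller part of the neurons in Irx5KO. They were 19.3% (16.3 to 22.6) of 626 WT neuron-like cells and 9.27% (7.45 to 11.4) of 895 Irx5KO neuron-like cells, a 2.08-fold lower share (1.56 to 2.79). The larger cluster was 2.25-fold lower (1.65 to 3.08), and the smaller one, at 11 and 13 cells, 1.21-fold lower (0.491 to 2.93). Set against every cell kept, neuron-like cells went up from 34.0% in WT to 45.9% in Irx5KO. On that base SCN-like cells went down from 6.57% to 4.26%. The neurons led by Foxb1 and Cpne9 also went down, from 2.72% (50 cells) to 1.49% (29 cells). The other neuron types went up, those led by Npvf and Pomc from 1.25% to 4.36%. Shifts in share were thus not confined to SCN-like cells. Among the neuron-like UMIs, 15.6% in WT and 7.38% in Irx5KO came from SCN-like cells, a ratio of 0.473. Among the markers, Lhx1, Six6, Six3, Syt10, Zfhx3, Rorb, Rora, Dlx1 and Nr1d1 had Irx5KO over WT ratios of 0.790 to 1.22 within the class, and Grp had 8 UMIs in WT and 44 in Irx5KO, 26 of them in 1 cell.

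All 7 members were lower over the neuron-like cells of Irx5KO as a whole. Vip was 1.41-fold lower (1.3 to 1.53), Nms 1.33-fold (1.03 to 1.71) and Rgs16 1.31-fold (1.16 to 1.48). Prok2 was 1.88-fold lower (1.45 to 2.45), Prokr2 2.51-fold (1.59 to 4.0), Vipr2 3.65-fold (2.31 to 5.88) and Avp 3.74-fold (3.54 to 3.94). At a size of 1.5-fold, 4 of 7 were lower and 0 higher, against 6.47% of 10903 measured genes lower and 12.5% higher. The 2 sets are unlike in where they are found. Over all cells, SCN-like cells held 49.0% to 98.0% of the UMIs of each member and 5.25% of those of the median gene. The median log2 ratio was -0.91 over the members and 0.07 over all measured genes. In such sums alone, fewer SCN-like cells and less RNA per cell cannot be told apart. Within SCN-like cells, as given below, levels were higher in Irx5KO for Vip, Nms and Rgs16, near level for Prok2 and lower for Avp, Vipr2 and Prokr2. Over all cells, Avp was 2.64-fold lower (2.51 to 2.78), Vipr2 2.95-fold (1.93 to 4.61) and Prokr2 1.95-fold (1.27 to 3.02), so that 3 of 7 were lower and 0 higher, against 9.85% and 12% of 14379 genes. Vip, at 298 CPM (WT) and 288.5 CPM (Irx5KO), and Rgs16, at 127 and 133 CPM, were nearly level over all cells.

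Within SCN-like cells the members went separate ways. Vip was 1.49-fold higher in Irx5KO (1.38 to 1.61), Nms 1.52-fold higher (1.17 to 1.96) and Rgs16 1.52-fold higher (1.34 to 1.73). Prok2 had a ratio of 1.04 (0.793 to 1.36), which became 0.645 when each cell was scaled to 10000 UMIs and cells were averaged. Avp was 1.35-fold lower (1.26 to 1.46), Vipr2 1.95-fold lower (1.12 to 3.53) and Prokr2 1.49-fold lower (0.828 to 2.75), the last with an interval that takes in no difference. By size, 2 of 7 were at least 1.5-fold higher and 1 lower, against 9.69% of 2240 measured genes higher and 12.5% lower. These counts are close to the 1.5-fold line: 0 of 7 were higher when the libraries were scaled by TMM, which shifted log2 ratios by 0.07, or by median of ratios, which shifted them by 0.14. Those scalings put 34.0% and 26.3% of the genes past 1.5-fold on the higher side, against 43.7% by class totals. The median log2 ratio was 0.06 over the members and -0.04 over all measured genes.

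**Figure D5:**
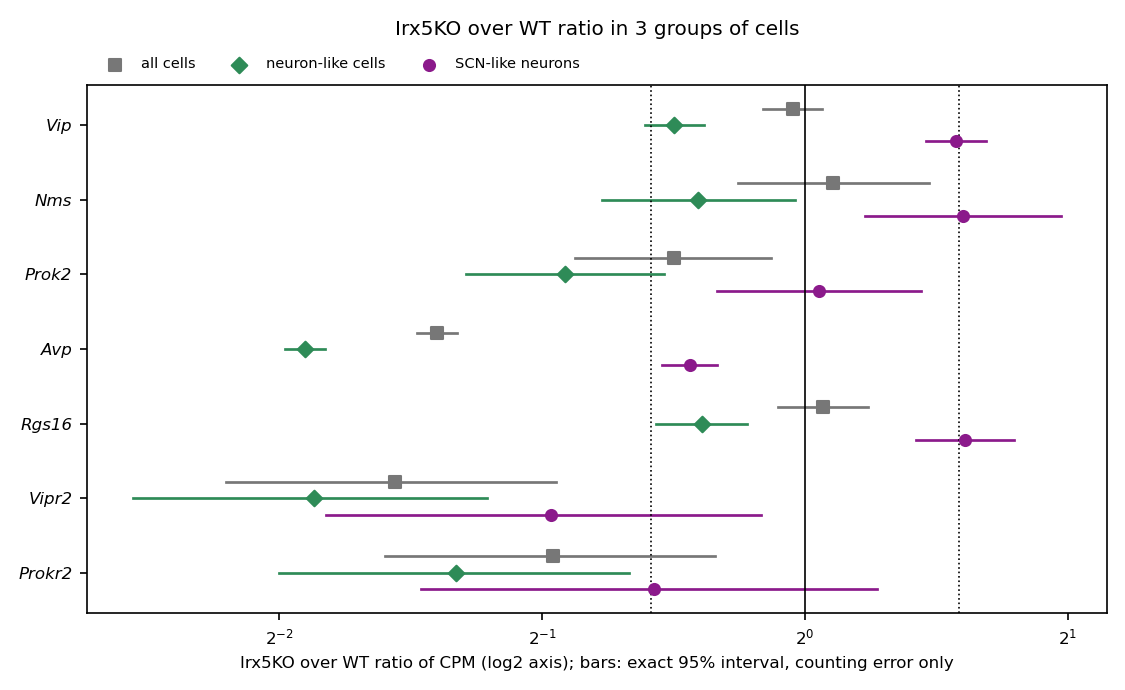
Irx5KO over WT ratio of each member in all cells, neuron-like cells and SCN-like neurons (log2 axis), with exact 95% intervals for counting error, and dotted lines at 1.5-fold. All 7 ratios lie below 1 in neuron-like cells, while in SCN-like neurons 4 lie above 1 and 3 below.

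Vip-rich cells made up more of the class in Irx5KO, and the Vip level within them, by which they were picked, was lower. They were 11.6% of the class in WT and 26.5% in Irx5KO, with intervals that overlap slightly. Their Vip level was 29014 CPM (27306 to 30801) in WT and 21539 CPM (20414 to 22709) in Irx5KO. A fixed UMI limit admits lower levels in deeper cells, and median depth was 1818 UMIs in WT and 2050 in Irx5KO. The part of depth in these differences was not tested. In each library 1 cell held many of these Vip UMIs, 239 of 1076 in WT and 265 of 1373 in Irx5KO. With limits of 5 and 20 UMIs in place of 10, the shares were 14.9% and 9.92% in WT and 30.1% and 22.9% in Irx5KO. Avp-rich cells had 21236 CPM (20292 to 22213) of Avp in WT and 18905 CPM (17835 to 20022) in Irx5KO. Rgs16 was higher in Irx5KO in both Vip-rich and Avp-rich cells (values above), and in cells rich in neither it was 930.4 CPM in WT and 1044 CPM in Irx5KO. The intervals of the libraries overlap in Vip-rich cells and in cells rich in neither. Of the 161 Rgs16 UMIs of Avp-rich Irx5KO cells, 46 lay in 1 cell.

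Over the other neurons, Avp was 5.60-fold lower in Irx5KO (5.16 to 6.09), from 2306 and 770 UMIs, of which 2042 and 632 lay in the 5 cells described above. Without these, 264 and 138 UMIs remained (3.60-fold lower, 2.92 to 4.46), 152 of them in the Ghrh-like neuron of WT. Without that cell too, Avp stood at 73.9 CPM (WT) and 48.3 CPM (Irx5KO), 1.53-fold lower (1.18 to 1.98). Outside neurons the WT level was alike, but the Irx5KO level was higher than this, and the ratio there was 1.05 (0.82 to 1.33). Without the 5 cells the Avp ratio over neuron-like cells was 0.343, against 0.268 with them. Rgs16 in the other neurons had a ratio of 1.0 (0.706 to 1.45).

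SCN-like cells held some UMIs of other cell types' markers. The summed level of astrocyte markers was 14.2 CPM in WT and 30.7 CPM in Irx5KO, of tanycyte markers 39.0 and 43.9 CPM, and of oligodendrocyte markers 407 and 325 CPM. Magnocellular markers summed to 422 CPM in WT and 527 CPM in Irx5KO, mainly Oxt, with Sim1 at 0 in both. The list for Ghrh neurons summed to 2391 CPM in WT and 2712 CPM in Irx5KO, of which Dlk1 gave 2377 and 2655 CPM, and the defining genes Ghrh and Gsx1 were at 0 in WT and Th in both. Their part in the members' values was not tested.

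Of 50 other ligands, receptors, regulators and clock output genes of the nucleus, 15 had at least 50 UMIs in SCN-like cells. Of these, 5 lead an SCN-like cluster (Grp, Penk, Oxt, Nr1d1 and C1ql3), so their values are given side by side with no difference read. Of the remaining 10, 4 were at least 1.5-fold higher in Irx5KO (Sst, Nr1d2, Dbp and Bhlhe41) and 2 lower (Cck and Rasd1), against 9.69% and 12.5% of all measured genes. Their median log2 ratio was 0.39, against -0.04 over all measured genes. Penk, an enkephalin precursor, had 149 UMIs in WT and 25 in Irx5KO. Dbp, a clock-controlled transcription factor, had 88 UMIs in WT and 129 in Irx5KO (1.82-fold higher, 1.37 to 2.41), in 40 cells of each library. Bhlhe41 and Nr1d2, which encode clock repressors, were 1.64-fold (1.0 to 2.7) and 1.52-fold (0.920 to 2.52) higher. Nr1d1, another clock repressor, had 93 and 91 UMIs. Cck, which encodes cholecystokinin, had 130 UMIs in 20 WT cells (at most 23 in a cell) and 18 UMIs in 8 Irx5KO cells, a 5.83-fold lower level (3.55 to 10.1). Somatostatin (Sst) had 4 UMIs in WT and 151 in Irx5KO, 114 of them in 1 cell.

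Other list genes had at least 20 UMIs in the class. The neuronal granin Scg2 had 2089 and 1840 UMIs (ratio 1.09), and the calcium-binding genes Calb1 (45 and 49) and Calb2 (41 and 42) had ratios of 1.35 and 1.27. Gnaz, which encodes the G-protein alpha subunit z, had 28 (WT) and 18 (Irx5KO) UMIs, a ratio of 0.796 (0.415 to 1.49). The related regulators Rgs2 (42 and 25 UMIs) and Rgs17 (23 and 18 UMIs) had ratios of 0.737 (0.431 to 1.24) and 0.969 (0.493 to 1.88), with intervals that take in no difference. Rasd1, a Ras-like regulator of G-protein signalling, had 41 and 22 UMIs and was 1.5-fold lower (0.876 to 2.65), with an interval that also takes in no difference. Ciart and Cry1, which encode clock repressors, had 14 and 18, and 9 and 17 UMIs, and Cartpt had 7 and 16. With fewer than 50 UMIs, their ratios were 1.59 (0.748 to 3.46), 2.34 (0.986 to 5.96) and 2.83 (1.10 to 8.14). C1ql3, which leads an SCN-like cluster, had 86 and 80 UMIs, and Oxt 110 and 109.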

How the data were processed

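One Drop-seq library per genotype was analysed. The authors deposited WT as UMI counts and Irx5KO, like a merged table of both, as natural log values (ln of 1 plus counts per 10000), as the values show. The design had assumed counts in both. Irx5KO counts were recovered as whole numbers (largest deviation 4.55e-12), and summed values come from the WT and recovered counts. Per the submitters' processing notes, bcl2fastq, Picard, STAR 2.6.0b, Seurat 3 and mm10 were used. Not given in the sources used here are their roles and settings, strand included. Antisense genes overlap Prok2 (Gm26748), Rgs16 (Gm28513) and Vipr2 (Gm20658), so their reads cannot be told apart. There were 0 sample columns of other series.

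The filter asked for 500 or more genes and no more than 20% mitochondrial UMIs (587 to 17968 UMIs in WT, medians 1621 UMIs and 1060 genes; 587 to 14342 in Irx5KO, medians 1692 and 1124). Doublets called by the Scrublet method at an expected 5% were removed (10 of 1851 WT cells, 0.540%, and 23 of 1972 Irx5KO cells, 1.17%). The raw tables shared 1 barcode, and the kept cells 0. Cells were clustered with the Leiden algorithm (2000 variable genes without the 7 members, 30 components, 15 neighbours, resolution 1, no batch integration), and neurons again alone. Clusters were named from marker lists (mean log2 score of at least 1, at least 3 markers up, and most markers among the 10 leading genes). Neuron clusters without such a name carry their leading genes.

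UMIs were summed per class and library, as CPM. Ratios need 50 cells per library and 50 UMIs over both. Intervals at 95% are exact: Poisson for sums, conditional binomial for ratios, Clopper-Pearson for shares. Zeros were set against 3 counts. The members, lists and rules were chosen with earlier results of these data known. Named are the members, the 3 genes most like each, list genes with at least 20 UMIs in SCN-like cells, and class markers. Ratios were tested on simulated data. Gene positions came from GENCODE vM21. Software was Python 3.11.15 with scanpy 1.11.5, igraph 0.11.9, anndata 0.12.19, pandas 2.3.3, numpy 2.4.6, scipy 1.17.1 and matplotlib 3.10.9.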

Additional observations from a re-analysis of the deposited data

How the results depend on the processing

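Other filters, clusterings, scalings and thinnings were tried. Leaving out the cluster led by Grp and Lhx1, leaving out the cells with at least 300 Avp UMIs, leaving out a Ghrh-like cell rich in Avp, leaving out list genes that lead a cluster, and random seeds 1 and 2 were chosen after seeing the data. The SCN-like share ratio ran from 0.413 to 0.501 over 11 alternatives, and 4 members were lower and 0 higher over neuron-like cells in each of 15. Within SCN-like cells the count of members at least 1.5-fold higher, 2 as reported, was 0 with a mean over cells, TMM, median of ratios and resolution 2. The count lower, 1 as reported, was 3 with a mean over cells and 2 with TMM, median of ratios, resolution 2, a minimum of 200 genes, random seed 2 and without the cell richest in each gene. The ratio in SCN-like cells ran from 1.35 to 1.78 for Vip, 1.31 to 1.83 for Nms, 1.36 to 1.85 for Rgs16, 0.671 to 0.884 for Avp, 0.465 to 0.640 for Vipr2, 0.575 to 0.746 for Prokr2 and 0.645 to 1.31 for Prok2. The low end for Prok2 came from the mean over cells, which also gave 0.340 in place of 0.531 over neuron-like cells. The causes were not tested. Of the other list genes, with those that lead a cluster counted, 8 were higher at a minimum of 20 UMIs and 2 at 100, in place of 5, and without those that lead one 4 were. The share of WT cells with Nms that had Prok2 was 23.1% (5.04 to 53.8) when thinned to 2000 UMIs, with fewer cells, in place of 50%. No called direction reversed among the results recomputed. No paired analysis was possible because each genotype has 1 library, and for the same reason no replicate could be left out. Depth limits Vipr2 and Prokr2, each with 19 UMIs in SCN-like cells of Irx5KO.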
